A study of Mus musculus with 8 samples.

Results

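The broad autosomal domains of H3K27me3 were the regions of the deposited table that lay on chromosomes 1 to 19 and spanned at least 50 kb. There were 708 of them among 13585 regions in all, and among 11707 regions on the autosomes. H3K27me3, trimethylation of lysine 27 on histone H3, was profiled by chromatin immunoprecipitation and sequencing (ChIP-seq) in primary female C57BL/6J neural stem cells (NSCs) at fewer than 10 passages, in which the endogenous Smchd1 protein bore GFP. By the study's methods such cells were grown from the cortex of mid-gestation embryos. WT cells were Smchd1GFP+/+ and MommeD43 cells were Smchd1GFPMommeD43/MommeD43, homozygous for a variant of SMCHD1, a chromatin protein best known for its role on the inactive X chromosome. Each genotype had 3 ChIP libraries from separate cell lines and 1 whole cell extract (WCE) library, and the tag was present in every line. The table held 1 pooled value per region and genotype, so that no spread between lines was available and no difference between genotypes could be tested.

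Polycomb repressive complex 2 (PRC2) deposits H3K27me3, and Polycomb repressive complex 1 can bind it through its CBX subunits. The mark is known for covering the promoters of silent developmental regulators, many of them rich in CG dinucleotides, and at some loci it spreads from such a start over a whole gene cluster. In cells committed to a neural fate, the Hox clusters and regulators of mesoderm, endoderm and other neural positions are familiar Polycomb targets. SMCHD1 has a known role in silencing on the inactive X chromosome and at autosomal clusters, among them Hox and imprinted genes.

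The value of a region was the log2 of its normalized read count, averaged by the authors over the libraries of a genotype. It grew with length, so a density was also taken, the value minus log2 of the length in kb, which is in log2 normalized counts per kb. Differences are in log2 units and positive where MommeD43 was higher. A broad domain held a median of 2251 reads per WT library and 3422 reads per MommeD43 library, as recovered from the step size of low values. The counting error of a difference was therefore small, with a median of 0.023 and a highest value of 0.048, and it covers counting alone and not the spread between lines. The domains were chosen by length, which comes from peaks called on the same libraries, so length and density are given as a description with no test. A region was made by widening peaks by 2.5 kb on each side and joining those within 1 kb, so a domain can contain stretches without a peak, and a gene start inside it need not itself carry the mark.

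As examples picked by hand and not as typical starts, the 250 bases upstream of 5 genes are given from RefSeq on GRCm38.p6. They read 5′ to 3′ on the strand of the gene, with each CG dinucleotide in capitals. CG reads the same on both strands, and matches cannot overlap. Tle3 lies in the longest domain, Skor1 in a very dense one, Begain and Igf1r in domains far higher and far lower in MommeD43, and Calcr in a domain of low GC content. The last line is the 200-base window with the most CG in a domain inside Erbb4 that holds no gene start, on the plus strand of the reference.
Tle3, chr9:61372116-61372365, plus strand: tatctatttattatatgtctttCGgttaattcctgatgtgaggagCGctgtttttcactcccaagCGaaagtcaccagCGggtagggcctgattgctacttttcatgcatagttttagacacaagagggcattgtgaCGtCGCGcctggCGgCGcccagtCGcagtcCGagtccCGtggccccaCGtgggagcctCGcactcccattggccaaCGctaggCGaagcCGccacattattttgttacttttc
Skor1, chr9:63148962-63149211, minus strand: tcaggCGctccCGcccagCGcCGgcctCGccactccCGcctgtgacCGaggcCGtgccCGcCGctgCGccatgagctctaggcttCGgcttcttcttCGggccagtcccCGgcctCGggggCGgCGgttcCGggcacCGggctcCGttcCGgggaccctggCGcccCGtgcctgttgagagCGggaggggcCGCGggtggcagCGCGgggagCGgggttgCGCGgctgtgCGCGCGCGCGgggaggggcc
Begain, chr12:109068218-109068467, minus strand: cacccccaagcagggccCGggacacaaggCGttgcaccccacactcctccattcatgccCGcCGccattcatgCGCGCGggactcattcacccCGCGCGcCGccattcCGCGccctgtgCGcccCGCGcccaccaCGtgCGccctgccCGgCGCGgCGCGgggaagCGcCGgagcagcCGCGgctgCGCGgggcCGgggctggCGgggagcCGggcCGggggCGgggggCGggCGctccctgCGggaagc
Igf1r, chr7:67952007-67952256, plus strand: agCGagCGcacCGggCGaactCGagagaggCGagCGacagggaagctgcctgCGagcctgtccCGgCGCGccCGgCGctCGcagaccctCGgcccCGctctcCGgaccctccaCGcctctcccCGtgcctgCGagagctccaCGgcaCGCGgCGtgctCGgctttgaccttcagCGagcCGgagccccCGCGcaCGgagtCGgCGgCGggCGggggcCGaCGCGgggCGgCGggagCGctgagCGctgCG
Calcr, chr6:3764714-3764963, minus strand: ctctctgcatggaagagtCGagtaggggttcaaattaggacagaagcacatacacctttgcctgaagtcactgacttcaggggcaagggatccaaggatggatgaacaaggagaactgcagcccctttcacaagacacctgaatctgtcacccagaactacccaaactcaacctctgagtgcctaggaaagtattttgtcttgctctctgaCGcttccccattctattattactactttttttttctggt
Erbb4 domain, chr1:69054932-69055131, plus strand: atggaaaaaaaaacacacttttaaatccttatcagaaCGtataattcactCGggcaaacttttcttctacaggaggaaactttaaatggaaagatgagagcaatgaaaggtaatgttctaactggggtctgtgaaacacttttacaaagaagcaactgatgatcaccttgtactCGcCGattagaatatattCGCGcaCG

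CG dinucleotides numbered 17 in the Tle3 sequence, 36 in Skor1, 37 in Begain, 42 in Igf1r and 2 in Calcr. Of 15687 autosomal promoters in the RefSeq table, 33.5% held at least 17, 3.26% at least 36, 1.11% at least 42 and 85.0% at least 2. The start of Igf1r in RefSeq lay 570 bp from the GENCODE start used for the gene counts. The richest window of the Erbb4 domain held 7 CG in 200 bases. Over the 937 genes with a start in a broad domain and a promoter in the table, the median was 13 CG in 250 bases, against 13 for 3554 genes in shorter regions and 9 for 11196 genes in no region. The medians were thus equal for broad domains and shorter regions, and lower for genes outside the regions.

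The domains were few and held a large part of the mark. They made up 5.21% of the regions and 27.7% of the length of all regions, or 72.0 Mb, which is 2.92% of the autosomes. Their share of all normalized counts was 53.2% (WT) and 54.4% (MommeD43). The 10999 shorter autosomal regions covered 56.1% of the length and held 41.7% and 38.9%. Broad domains carried a mean of 128 normalized counts per kb in WT and 155 in MommeD43, against 49.5 and 54.7 in shorter autosomal regions.

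Lengths ran from 50 kb to 764 kb, with a median of 76.0 kb and quartiles of 60.2 and 110.0 kb. There were 509 domains under 100 kb, 199 of at least 100 kb, 55 of at least 200 kb, 17 of at least 300 kb and 4 of at least 500 kb. The median density was 6.45 in WT and 6.69 in MommeD43, against 5.13 and 5.17 in shorter autosomal regions. Density also increased with length within the domains, from a WT median of 6.22 at 50 to 75 kb to 6.49 at 75 to 100 kb, 6.74 at 100 to 200 kb and 7.10 above that. Of the 708 domains, 696 exceeded the autosomal median density in WT and 700 did so in MommeD43.

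**Figure D1:**
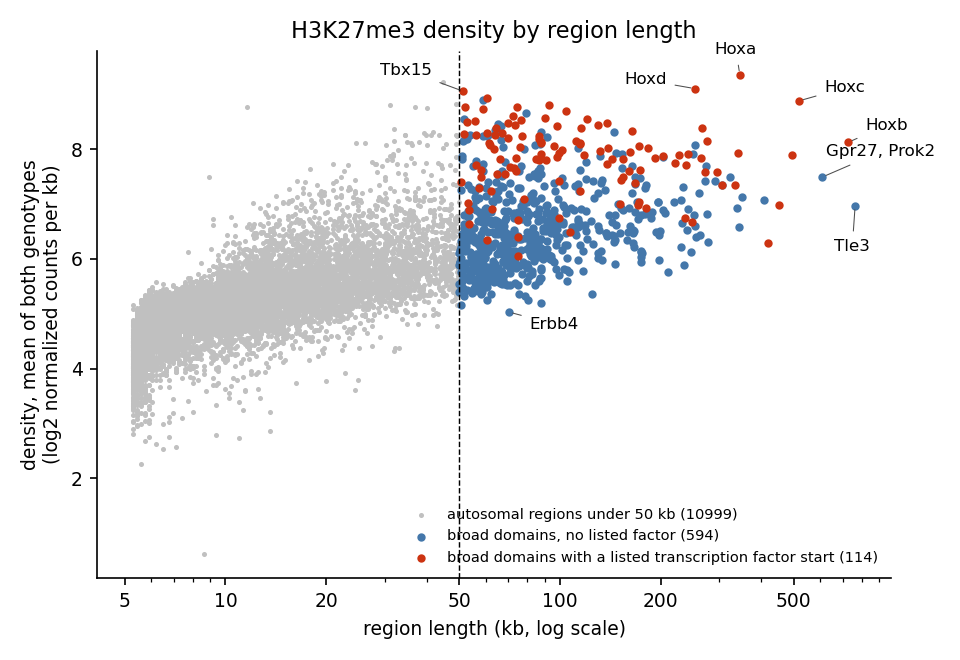
Density of H3K27me3 (y axis, mean of the 2 genotypes, log2 normalized counts per kb) against region length (x axis, kb, log scale) for 708 broad domains and 10999 shorter autosomal regions, each point a region and the dashed line at 50 kb. Red points are the 114 domains with the start of a listed transcription factor; most of them lie in the upper part of the cloud of domains, with the Hoxa and Hoxd clusters and Tbx15 at the top and the Erbb4 domain at the bottom.

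The limit at 50 kb cut through a continuous range of lengths. Among the shortest domains, a 50-kb region over Ptprn and Resp18 had values of 11.61 in WT and 11.90 in MommeD43, a region over Matn1 11.03 and 11.33, and a region over Hgfac and Dok7 11.43 and 11.63. Just under the limit, regions of 49.85 kb inside Garnl3, over Smarcb1 and Mmp11, and over Lman1 had WT values of 11.88, 12.64 and 11.50 and MommeD43 values of 11.68, 12.71 and 11.98. The values on the 2 sides of the limit thus overlapped.

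The longest domain, chr9:61147251-61910800 (764 kb), held a single protein-coding start, that of Tle3, a Groucho-family corepressor. Its value was 16.57 in WT and 16.53 in MommeD43. A separate region directly upstream, chr9:60883701-61146100, ended 1150 bp short of it and was itself 262 kb long. The Hoxb cluster followed, chr11:96064701-96793600 (729 kb), where 17 starts included Hoxb1 to Hoxb9 and Hoxb13 and also the neighbouring Skap1, Snx11 and Cbx1, and its value was 17.36 in WT and 17.91 in MommeD43. A 608-kb domain, chr6:99623001-100231150, covered Gpr27, an orphan receptor, and Prok2, which encodes prokineticin 2, a secreted ligand, with values of 16.73 and 16.75.

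The next in length included domains with regulators of body and brain pattern, and also a 350-kb domain over Ncs1, Hmcn2, Ass1 and Fubp3. The Hoxc domain, chr15:102676701-103196200 (519.5 kb), had the highest value of all, 17.74 in WT and 18.06 in MommeD43. A 496-kb domain on chr19:44436501-44932450 held Pax2, needed for kidney and midbrain-hindbrain development, and Wnt8b, with values of 16.62 and 17.07. Hmx1, a homeobox gene of sensory organs, shared a 451-kb domain with Adra2c, an adrenergic receptor (chr5:35099601-35550850, 15.60 and 15.99). Sox1, an early neural factor, lay in a 419-kb domain (chr8:12094401-12513850, 14.86 and 15.14), and Prdm16 in a 407-kb domain (chr4:154314651-154721200, 15.36 and 16.12). These long domains were not uniform in density, which in WT ran from 6.15 over Sox1 to 8.72 over Hoxc.

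By density the order was different, and compact loci joined the Hox clusters. Hoxa, chr6:52033251-52378300, was densest in both genotypes at 9.17 in WT and 9.54 in MommeD43, and Hoxd, chr2:74575551-74829250, followed at 8.97 and 9.23. Tbx15, a T-box factor of skeletal and skin development, reached 8.94 and 9.17 over only 51.4 kb (chr3:99224601-99275950). Skor1, a SKI-family corepressor whose upstream sequence is printed above, reached 8.61 and 9.19 over 58.7 kb (chr9:63121851-63180550). Of the 10 densest domains in WT, 9 were also among the 10 densest in MommeD43, and of the 50 densest 40 were.

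The least dense domains lay elsewhere. By the mean of both genotypes the lowest was chr1:68985951-69056200, within an intron of Erbb4, a neuregulin receptor, at 5.44 in WT and 4.62 in MommeD43 and with a GC content of 35.7%. A domain over Csf2rb2 and Csf2rb, cytokine receptor subunits of blood cells, was at 5.10 and 5.22. A domain over Krt80, a keratin, was at 5.02 and 5.47, and a domain next to Ror2, a Wnt receptor, at 5.11 and 5.39. A domain over Pla2g2c and Ubxn10 had 4.56, the lowest WT density, and 5.84 in MommeD43. The shorter autosomal regions had quartiles of 4.79 and 5.49 in WT and 4.797 and 5.55 in MommeD43, so these domains had densities like those of shorter regions, with 4.56 and 4.62 below and 5.84 above those quartiles.

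Gene starts were frequent in the domains. They held 1340 of the 20807 autosomal protein-coding starts, or 6.44%, at 18.6 starts per Mb against 8.45 per Mb over the autosomes. Shorter regions were richer per length, at 32.1 starts per Mb, and held 22.5% of the starts. Of the domains, 556 (78.5%) held at least 1 start, against 35.1% of shorter autosomal regions, which are also a smaller target. The share with a start increased with length, from 72.5% at 50 to 75 kb to 89.1% above 200 kb. The most crowded domain, chr10:79765251-80037700, held 21 starts, among them Elane and Prtn3, proteases of neutrophils, and Ptbp1, a splicing regulator that many cells express.

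Transcription factor families were strongly represented. The 17 lists of developmental factor families named 289 autosomal genes. Of these, 164 (56.7%) had their start in a broad domain and 77 in a shorter region. Of all autosomal starts, 6.44% lay in broad domains and 22.5% in shorter regions. All 39 Hox genes and all 6 Dlx genes lay in broad domains. So did 4 of 5 Gata genes, 10 of 14 Nkx genes, 38 of 55 neural patterning homeobox genes, 6 of 9 Pax genes and 8 of 12 LIM homeobox genes. T-box genes (7 of 15), forkhead genes (18 of 41), proneural bHLH genes (7 of 23), Sox genes (3 of 18) and POU domain genes (2 of 14) were divided.

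The families that were divided split by gene in both directions. Among forkhead genes, Foxa1 and Foxa2, factors of endoderm, and Foxd3, a factor of neural crest, lay in broad domains and Foxa3 in a shorter region, whereas the proliferation factor Foxm1 lay in no region. Of the proneural genes, Neurog1, Neurog2, Neurod2 and Olig3 lay in broad domains, while Olig1 and Olig2, which neural progenitors use, lay in no region. In the Sox family, Sox1, Sox7 and Sox14 lay in broad domains and Sox2, Sox9 and Sox21 in none. The Zic pair Zic1 and Zic4 shared a domain and Zic2 lay in no region.

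**Figure D2:**
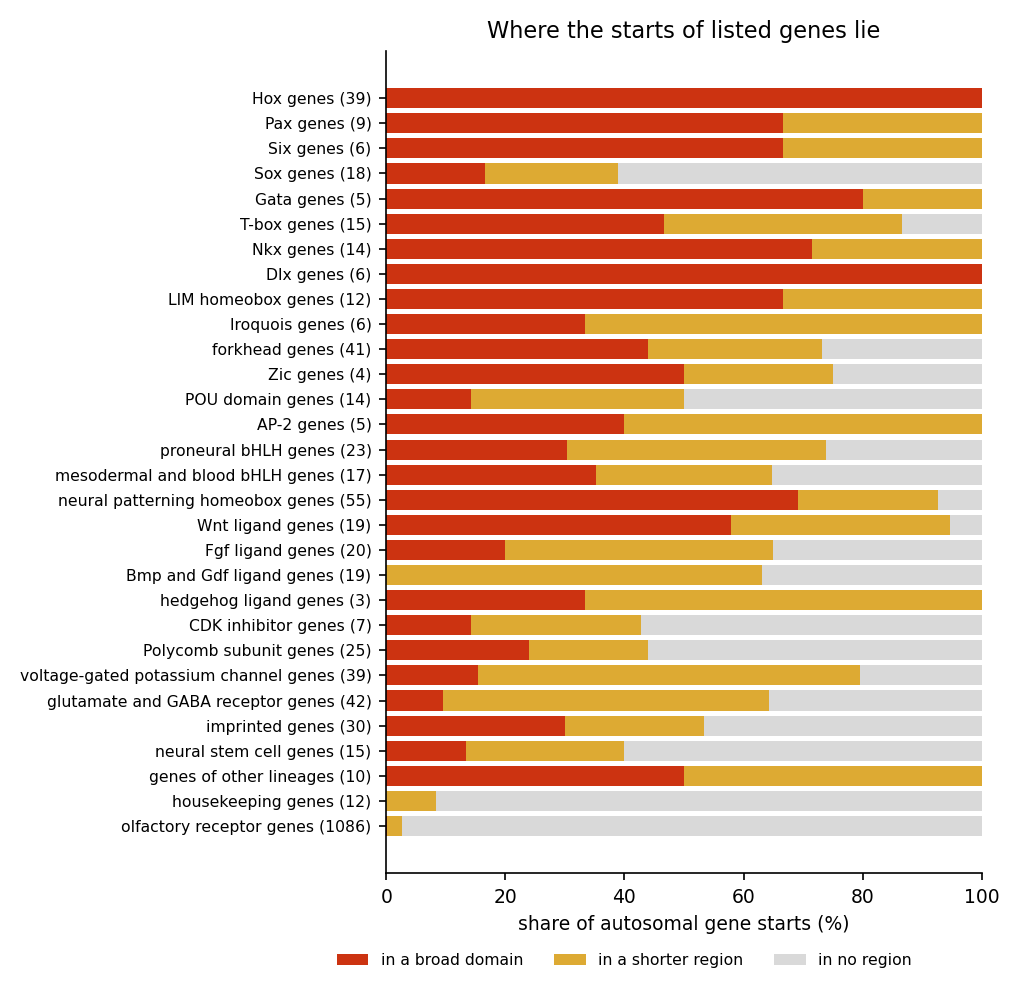
Share of the autosomal starts of each gene list (x axis, %) that lay in a broad domain (red), in a shorter region (yellow) or in no region (grey), with the number of genes in parentheses. Hox and Dlx genes lay wholly in broad domains, and the Bmp and Gdf ligand genes lay in shorter regions or in none.

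Signalling genes can be read against the 6.44% of all autosomal starts that lay in broad domains. Of the Wnt ligand genes, 11 of 19 lay in broad domains, with Wnt6, Wnt10a and the hedgehog ligand gene Ihh together in a 253-kb domain (chr1:74730651-74983600, 15.81 in WT and 16.31 in MommeD43). Of the Fgf ligand genes 4 of 20 did, Fgf3, Fgf4 and Fgf15 in a single 196-kb domain and Fgf18 elsewhere. None of 19 Bmp and Gdf ligand genes did, although 12 of them lay in shorter regions. Ion channels and receptors were mostly in shorter regions, with 6 of 39 voltage-gated potassium channel genes and 4 of 42 glutamate and GABA receptor genes in broad domains. Of 12 housekeeping genes none lay in a broad domain, a number too small to tell from the share of all starts, and of 1086 olfactory receptor genes 2 did.

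Genes of the Polycomb system and imprinted genes were also found. Broad domains held 6.44% of all autosomal starts, and 71.1% lay in no region. Of 25 Polycomb subunit genes 6 lay in broad domains, Ezh1, Pcgf1 and Pcgf2 among them. Ezh2, Eed and Suz12, the core of PRC2, lay in no region, like most genes. Of 30 imprinted genes, 9 lay in broad domains. Cdkn1c, a CDK inhibitor, and Phlda2, a regulator of placental growth, shared a 206-kb domain (chr7:143307501-143513350, 14.51 and 14.54), and Magel2, Mkrn3 and Ndn, the paternally expressed genes of the Prader-Willi locus, shared a 95.8-kb domain (chr7:62340051-62435800) at 13.52 in WT and 12.86 in MommeD43. Its difference of -0.66 went to 0.00 once the trend with GC content was removed.

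The labelled cell type was checked against its markers, which a Polycomb mark would leave free where the gene is in use. Of 15 genes that mark neural stem cells, 9 lay in no region, among them Sox2, Fabp7, Slc1a3, Vim, Notch1, Sox9, Egfr and Emx2, and Pax6, Nes, Msi1 and Lhx2 lay in shorter regions. Of all autosomal starts 71.1% lay in no region, so this count does not set the markers apart from other genes. Hes1 and Hes5, Notch targets, lay in broad domains, so these and Pax6, Nes, Msi1 and Lhx2 all lay within regions of the mark. Hes1 lay in a 56.9-kb domain with values of 11.58 and 11.59, and Hes5 in a 110.9-kb domain it shared with Mmel1 and Tnfrsf14, at 13.09 and 13.44. Of 10 genes of other lineages, Gata4, Foxa2, Pdx1, Cdx2 and Pax1 lay in broad domains and the other 5, Gata6, Myod1, Sox17, T and Tbx5, in shorter regions. Broad domains held 6.44% of all autosomal starts and shorter regions 22.5%. Gata4 lay in a 342-kb domain (chr14:63179301-63521050, 16.18 and 16.51).

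Domains without a gene start numbered 152, of which 71 overlapped a protein-coding gene and 81 did not. The longest, 262 kb next to the Tle3 domain and 3331 bp from Uaca, had values of 14.47 in WT and 14.48 in MommeD43. A 253-kb domain within Tenm4, a teneurin of axon guidance, had 14.61 and 14.54. A 247-kb domain near Mn1 had 14.14 and 14.01, and a 240-kb domain near Prex1 14.46 and 14.40. The differences of these 4 domains ran from -0.13 to 0.00.

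Between genotypes the densities of the domains followed each other, with Pearson's r = 0.901 and Spearman's rho = 0.883 over 708 domains, against 0.750 and 0.724 over 10999 shorter regions. The points share libraries and the shorter regions have larger counting error. The median difference was 0.26, with quartiles of 0.02 and 0.46 and a range from -1.54 to 2.51, against a median of 0.06 in shorter autosomal regions. Of the domains, 545 (77.0%) were higher in MommeD43, where 57.7% of all autosomal regions were. The study regards ChIP-seq as poorly suited to comparing levels of the mark. Its immunofluorescence showed a modest decrease of H3K27me3 in MommeD43 NSCs, on the inactive X chromosome and over the whole nucleus. The size of the overall shift in these counts depended on the scaling, and its sign on the trends removed. Setting both genotypes to the same autosomal median left a median of 0.23 with 531 domains higher. Setting both genotypes to the same total over the regions lowered every difference by 0.24 and left a median of 0.01 with 364 domains (51.4%) higher, against 32.9% of all autosomal regions. Removing the trend of the difference with read abundance turned the median to -0.02 and the margin over shorter regions to -0.02, with 335 domains (47.3%) higher against 50% of all autosomal regions. With the trends of GC content and density removed the median was -0.05, and 292 domains (41.2%) were higher against 50.1%. The trends were fitted to all autosomal regions, the domains among them. The domains are nearly all at the high end of the abundance scale. Removing that trend therefore takes out much of their own median and cannot show its direction.

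By size, 146 domains (20.6%) were at least 0.5 higher in MommeD43, a fold of 1.41, against 13.4% of all autosomal regions, and 29 (4.096%) were at least 0.5 lower against 11.5%. At a difference of at least 1, a fold of 2, 15 domains were higher and 6 lower, against 2.28% and 2.93% of autosomal regions. The difference was outside its 95% counting interval in 657 domains (92.8%), against 63% of autosomal regions. Shorter regions hold fewer reads, so such shares are not on equal terms. Under scaling to the same total, 36 domains were at least 0.5 higher and 64 at least 0.5 lower (5.08% and 9.04%), against 5.04% and 22% of all autosomal regions. Without the abundance trend the counts were 29 and 66 domains (4.096% and 9.32%), against 9.76% and 13% of all autosomal regions, and without the GC and density trends 33 and 41 (4.66% and 5.79%), against 8.35% and 6.24%.

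**Figure D3:**
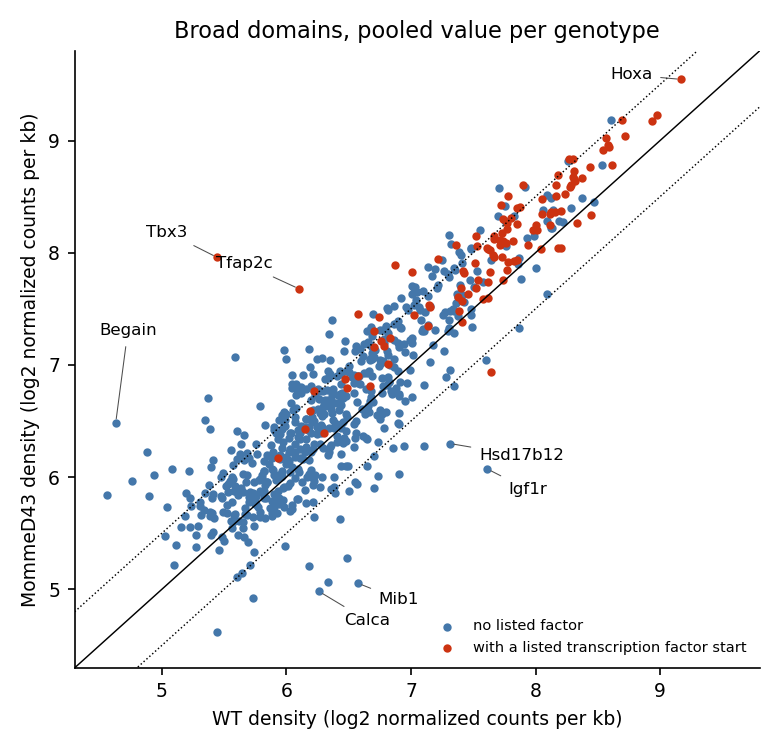
Density of the 708 broad domains in MommeD43 (y axis) against WT (x axis), in log2 normalized counts per kb, each point 1 pooled value per genotype with no replicate error available. The solid line marks equal values and the dotted lines a difference of 0.5; most points lie between the solid and the upper dotted line, and Tbx3, Begain and Tfap2c lie far above it.

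The domain with the largest positive difference, chr5:119640501-119715550, covered Tbx3, a T-box factor of limb, heart and mammary development. Its value was 11.67 in WT and 14.19 in MommeD43, a difference of 2.51, or 999 reads per WT library against 7087 per MommeD43 library. In density it moved from 5.44, below the middle of the domains, to 7.96. Begain, which encodes a protein associated with the postsynaptic scaffold and sits beside the imprinted Dlk1 cluster, followed with 10.68 and 12.54 (chr12:109024101-109090450), a difference of 1.85. Its upstream sequence is rich in CG. Lgr5, the R-spondin receptor that marks stem cells of the intestine, lay in a domain with 11.27 and 12.60 (chr10:115547301-115606900), a difference of 1.33.

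Other domains with large positive differences lay on chromosome 4. The domain over Pla2g2c, a phospholipase, and Ubxn10 had 11.01 and 12.29 (chr4:138664701-138752200), and a domain without a gene on chr4:125219151-125294500 had 10.99 and 12.20, with Zc3h12a as the nearest gene. Both remained at least 0.90 higher after the trend with GC content was removed. Among listed factors, Gbx2 of the midbrain-hindbrain border had 14.26 and 15.28, Sox7 12.31 and 13.18, Lhx5 13.64 and 14.46, and Pdx1 and Cdx2, which shared a domain, 14.58 and 15.30. These 4 domains of factors were singled out after their values were seen.

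Tfap2c, an AP-2 factor of trophoblast and germ cells, lay in a domain of 53.5 kb (chr2:172536651-172590100) with 11.84 in WT and 13.42 in MommeD43, a difference of 1.58. The domains with the next largest differences lay nearby, the nearer with Bmp7 as its closest gene (chr2:172748451-172799200, 11.25 and 12.73) and the farther beside Pmepa1 (chr2:173296851-173353450, 10.70 and 12.05). Pmepa1, a negative regulator of TGF-beta signalling, had its own domain at 12.32 and 13.12. From 172 to 174 Mb of chromosome 2, a stretch chosen after the values were seen, all 30 regions were higher in MommeD43, against 57.7% of all autosomal regions, with a median difference of 0.80. The 26 shorter regions among them had a median of 0.71. With the GC trend removed 29 of the 30 were above 0, against 49.9% of all autosomal regions, with a median of 0.49.

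**Figure D4:**
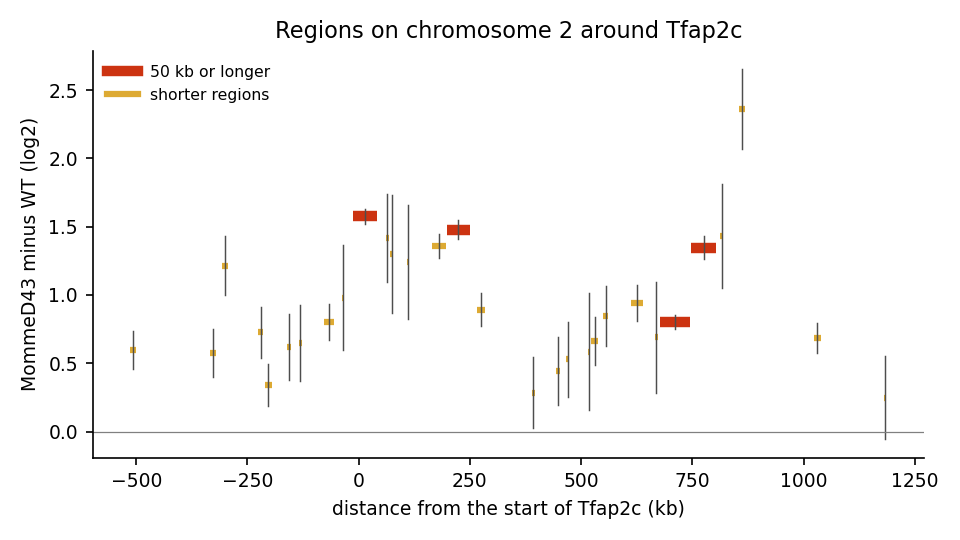
Difference between genotypes (y axis, MommeD43 minus WT, log2) of the 30 regions from 172 to 174 Mb of chromosome 2, against distance from the Tfap2c start (x axis, kb). Each bar spans a region, red for those of at least 50 kb and yellow for shorter ones, and thin lines are 95% counting intervals; all 30 bars lie above 0.

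Igf1r, the receptor of insulin-like growth factors, lay in a domain (chr7:67898601-67959250) with 13.53 in WT and 11.996 in MommeD43, a difference of -1.54, or 3628 reads per WT library against 1551 per MommeD43 library. A chromosome 18 domain over Abhd3 and Mib1, an E3 ligase of Notch signalling, had 12.26 and 10.74. Calca, which encodes calcitonin and CGRP, lay in a domain with 12.34 and 11.06 (chr7:114600501-114668050), and Hsd17b12, an enzyme of lipid synthesis, in a domain with 13.86 and 12.84 (chr2:94156551-94249900). Domains without a gene on chr2:106205001-106264450 and chr9:30114051-30192400 had 12.23 and 10.96, and 12.78 and 11.57. Calcr, the calcitonin receptor, had 12.27 and 11.29 (chr6:3719451-3787300), and the domain over Plag1 and Mos 14.15 and 13.27.

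The difference followed base composition. Over the 708 domains it correlated with GC content at Spearman's rho = 0.470, and over the shorter regions at 0.583. In the 177 domains with the lowest GC content the median difference was -0.02 and 85 were higher in MommeD43. In the next 3 groups of 177 by increasing GC content it was 0.22, 0.34 and 0.41, with 139, 156 and 165 higher. Of the 29 domains at least 0.5 lower in MommeD43, 24 lay in the lowest of these groups. Removing the autosomal trend with GC content left a median of 0.08 in the domains and 422 of them (59.6%) higher, against 49.9% of all autosomal regions. It left 51 domains (7.20%) at least 0.5 higher and 28 (3.95%) at least 0.5 lower, against 8.52% and 6.51% of all autosomal regions. Most of the latter are shorter regions with larger counting error, so these shares are not on equal terms. The part that base composition played in the difference was not tested.

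**Figure D5:**
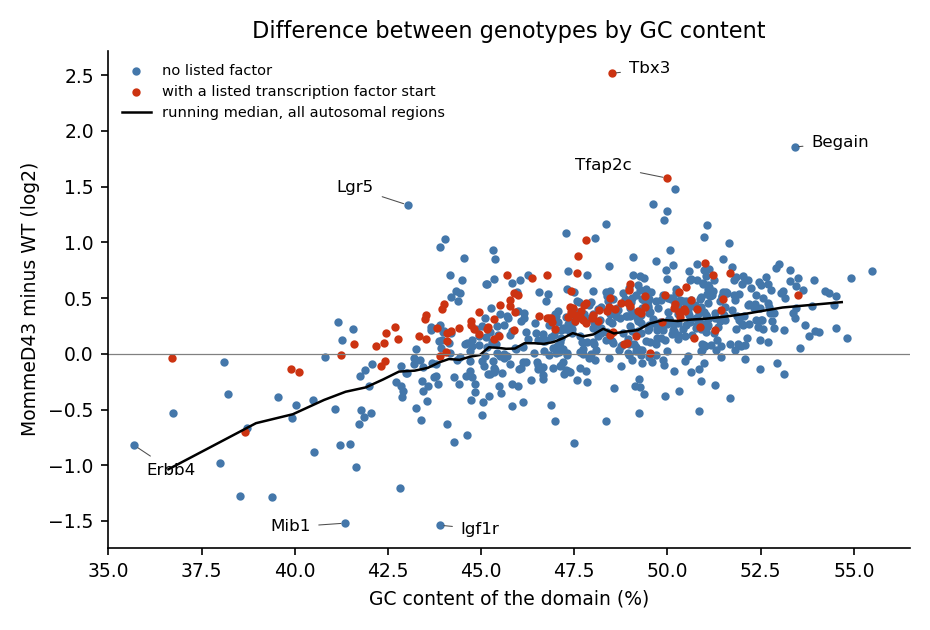
Difference between genotypes (y axis, MommeD43 minus WT, log2) against GC content (x axis, %) of the 708 broad domains, red where a domain holds the start of a listed transcription factor; the line is the running median of all autosomal regions in 40 bins. The line climbs with GC content from below 0 to above 0, and Tbx3, Begain, Igf1r and Mib1 lie far from it.

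Domains at both ends of the list differed in what that removal left. Tbx3 kept a difference of 2.33, Begain 1.43, Tfap2c 1.28 and Lgr5 1.49, and Igf1r kept -1.46 and the Mib1 domain -1.18. Calca went to -0.69, and Calcr, in a domain of 38.0% GC with 2 CG in its upstream sequence, went to -0.18. The Erbb4 domain, with a difference of -0.82, turned to 0.21. In all, 45 domains (6.36%) were at least 0.5 higher both with and without the removal, against 6.17% of all autosomal regions, and 15 (2.12%) were at least 0.5 lower, against 4.72%.

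The median difference varied with gene content, and the count past 0.5 did not follow it. The 114 domains with a listed factor start had a median difference of 0.34, and 106 of them were higher in MommeD43, 22 of 114 by at least 0.5, and 1 was lower by at least 0.5, that of Nkx2-4, which had 13.48 and 12.78. Of the 442 domains with other starts 98 were higher by at least 0.5, and of all 708 domains 146 were. Those 442 domains had a median of 0.26, the 71 without a start but over a gene 0.21, and the 81 without a gene 0.05. With the GC trend removed the medians were 0.23, 0.04, 0.08 and -0.03 in that order. The domains with a listed factor were also the densest, at 7.74 in WT and 8.06 in MommeD43, against 6.00 and 5.96 for those without a gene.

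Among the Hox clusters, Hoxa differed by 0.38, Hoxb by 0.54, Hoxc by 0.32 and Hoxd by 0.26, and scaling to a common total, which lowers each by 0.24, left all 4 above 0. Hoxd went to -0.05 without the abundance trend and Hoxc to -0.01 without the GC and density trends, and Hoxa and Hoxb stayed above 0 under both. Among the other long domains, that over Prdm16 differed by 0.76. In contrast, the Tle3, Gpr27 and Prok2, and Foxo6 domains differed by -0.04, 0.02 and 0.01.

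Domains were unevenly placed along the genome. Chromosome 2 held 88, chromosomes 4 and 11 held 70 each and chromosome 16 held 10. Per 10 Mb, chromosome 11 had 5.73 and chromosome 16 had 1.02. The median difference by chromosome ran from 0.09 on chromosome 1 to 0.44 on chromosome 19. With the GC trend removed these medians were -0.09 and 0.20. Neighbouring domains also resembled each other, with rho = 0.476 between the differences of 168 pairs under 100 kb apart, 0.309 for 256 pairs from 100 kb to 1 Mb apart and 0.206 for 265 pairs farther apart. With the GC trend removed these were 0.402, 0.242 and 0.106. Of the adjacent pairs, 36 were under 5 kb apart, so some long tracts of the mark stand in the table as separate domains.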

How the data were processed

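H3K27me3 ChIP-seq was performed on 6 libraries and WCE on 2. Per the labels nuclei were digested with MNase, whereas the study's methods describe Covaris shearing for this mark. The authors trimmed reads with Trim Galore 0.4.4, aligned them with Bowtie2 2.3.4.1 to GRCm38.p6 (versions from the submitters' processing notes), extended reads by 150 bp in SeqMonk, called peaks per genotype over pooled replicates with WCE as control, widened these by 2.5 kb and merged those within 1 kb. The deposited table gives log2 read counts per region, scaled by the authors to total library size and averaged over the libraries of a genotype, without division by length or subtraction of WCE. The 2 value columns are pooled, so there is no SD, n or p-value. Total library sizes are not given in the table.

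Regions of at least 50 kb on chromosomes 1 to 19 were taken from the start and end columns. Protein-coding starts came from GENCODE mouse release 21, and sequences from RefSeq, where 937 of 1340 starts in the domains had a promoter. The normalized counts worth 1 read were recovered from low values (3.27 in WT and 2.63 in MommeD43, with 99.9% and 99.6% of 1139 and 684 products of the 3 libraries' counts whole within 0.1) and gave the counting error, taken as Poisson and with a 95% interval, which is a lower limit. Trends with GC content, abundance and density were removed as running medians over 40 bins of autosomal regions. The tools were pandas 2.3.3, numpy 2.4.6, pysam 0.24.0, scipy 1.17.1 and matplotlib 3.10.9 in Python 3.11.15, and the read unit and trend removal were tested on simulated data.

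The members and gene lists were chosen with earlier results of these data known. Domains were named by rule: the longest, the largest and smallest differences, the highest and lowest densities, the most starts, the longest without a start, those at the length limit, and the longest per gene list. The domains of Gbx2, Sox7, Lhx5, Pdx1 and Cdx2, Nkx2-4, Pmepa1 and the Prader-Willi genes were named after their values were seen. Alternatives were other scalings, removal of trends, and other length limits. Some genes and domains are not reported here.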

Additional observations from a re-analysis of the deposited data

How the results depend on the processing

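No paired analysis was possible because the deposited columns carry no replicates, and for the same reason leaving out a library was not done. The counting error of a domain was small. The spread between lines was not measured, and WCE was not subtracted. Removing the abundance trend, or the GC and density trends, left a slightly negative median. The domains were themselves among the regions to which these trends were fitted. Setting both genotypes to the same autosomal median left a median difference of 0.23, with 133 domains at least 0.5 higher, 31 at least 0.5 lower and 531 higher.

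Setting both genotypes to the same total gave a median difference of 0.0135, 36 domains at least 0.5 higher and 64 at least 0.5 lower in MommeD43. Removing the abundance trend took the median to -0.0215 and the margin over shorter regions to -0.0229. It left 29 higher by at least 0.5, 66 lower by at least 0.5 and 335 higher at all. Removing the GC trend gave a median of 0.0837, a margin of 0.0886 and 51 domains at least 0.5 higher. Removing the GC and density trends took the median to -0.0523 and the margin to -0.0568, with 33 at least 0.5 higher and 292 higher at all. The cause was not tested.

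A limit of 30 kb gave 1535 domains with 66.98% of WT and 68.0% of MommeD43 counts, 10.2% of gene starts, a median difference of 0.20, a margin of 0.15, 292 at least 0.5 higher, 78 at least 0.5 lower and 1107 higher. Their density margin was 1.04 in WT and 1.18 in MommeD43, and the density correlation 0.878. A limit of 100 kb gave 199 domains with 31.2% and 32.2% of counts, 2.74% of starts, a median of 0.30, a margin of 0.23, 47 at least 0.5 higher, 3 at least 0.5 lower and 169 higher, with density margins of 1.66 and 1.93 and a correlation of 0.923. Joining neighbours within 5 kb gave shares of counts of 58.8% and 59.8%, density margins of 1.097 and 1.27 and 8.32% of starts. The median of domains with a listed factor start minus that of the others, added after seeing the data, was 0.12 and went to 0.20 without the GC trend, to 0.0786 without the abundance trend and to 0.0790 without the GC and density trends. The other scalings shift every domain alike and could not change it.

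Of 310 values of 62 named domains under 5 alternatives, 42 stayed within the 95% counting interval of the value as reported. In all 66 values, of 29 domains, changed sign, 24 of them without the GC and density trends, 15 without the abundance trend, 13 without the GC trend, 11 at the same total and 3 at the same autosomal median. Among the 22 named domains that differed by at least 0.5, 2 values changed sign, both of the Erbb4 domain, at 0.21 without the GC trend and 0.26 without the GC and density trends.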
